A study of Mus musculus with 3 samples.

Results

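The genes described here encode Rab GTPases, the small GTP-binding proteins of vesicle traffic. They were chosen by name: every gene whose symbol is Rab followed by a number, with an optional letter and digit, and that has at least 1 protein-coding transcript in the annotation. This gave 59 genes of 22028 protein-coding genes and of 55536 annotated genes in all. The material was RNA of the cytosolic fraction of bone marrow-derived macrophages, primary cells grown out of mouse marrow, of strain C57BL/6J. All 3 libraries belong to 1 group: the cells received Lipid A at 100 ng/ml for 12 h, were kept for 12 h after washout, and received Lipid A at 100 ng/ml again for 25 min. Lipid A is the membrane anchor of bacterial lipopolysaccharide and the part that Toll-like receptor 4 recognises. The sex and age of the animals were not collected, and the 3 biosamples carry the same donor entry, so every SD below describes how far these 3 preparations differ, which may be technical. Untreated cells, cells without the second stimulus and nuclear RNA were not analysed here, so no value below shows an effect of Lipid A.

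A Rab protein is a molecular switch. Exchange factors load it with GTP at a given membrane, the loaded form recruits effectors such as tethers and motors, and GTPase-activating proteins return it to the GDP form, which a GDP dissociation inhibitor lifts off the membrane. Macrophages rely on this cycle for the ripening of phagosomes, for the delivery of Toll-like receptors and for the release of cytokines. Membrane attachment depends on cysteines near the C-terminus that Rab geranylgeranyl transferase modifies with lipid.

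The ends of the coding sequences show this shared feature and how the family members divide by it. The following are the last 8 codons and the stop codon of 12 members, given 5′ to 3′ on the coding strand, from the GENCODE M21 transcripts of mouse build mm10, with the cysteine codons of the last 5 in capitals. They include abundant members and some of their paralogs, and leave out other abundant members such as Rab10 and Rab14.
Rab7: gcctccgcagaaagcTGCagtTGTtga
Rab7b: ggccagccaaagagcagaTGCTGCtga
Rab5a: gccagaagccagTGTTGTagtaactga
Rab5b: aacaagagccagTGTTGTagcaactga
Rab5c: agccggagccagTGCTGCagcaactga
Rab8a: agcttcttccggTGCagtctcctgtga
Rab8b: agtttcttccgcTGTtctctgctttga
Rab11a: aaggtgcagTGCTGTcagaacatctaa
Rab11b: aagctgcagTGCTGCcagagcctgtga
Rab4b: gtggcccctcagcccTGTggcTGCtga
Rab1a: aagcagtcaggtggaggcTGCTGCtaa
Rab32: acaaagcccaggtcccagTGCTGCtga
Of the 59 members, 20 ended with cysteine codons at the last place and the third place from the end, as in Rab7 and Rab4b, and 10 of these 20 were detected. Another 15 ended with 2 adjacent cysteine codons, as in Rab1a, Rab7b and Rab32, and 13 of these were detected. In 14 members, among them the Rab5 and Rab11 genes, 2 adjacent cysteine codons lay within the last 5 codons but not at the very end, and 9 were detected. A single cysteine codon at the fourth place from the end, as in Rab8a and Rab8b, closed 9 members, of which 6 were detected. Rab26 had none in the last 5 codons of the transcript used. Of all 59 members, 38 were detected, as defined below, beside 42.2% of protein-coding genes. Whether detection goes with the arrangement of cysteine codons was not tested. The median coding length was 215 codons, and 49 of the 59 lay between 190 and 230 codons. Paralogs differed at many bases: Rab8a and Rab8b were identical at 79.3% of 617 aligned coding bases, Rab5a and Rab5c at 74.0% of 647, and Rab7 and Rab7b at 65.4% of 474. The longest identical run in these pairs was 22 bases, in Rab5a and Rab5c.

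Levels are given in TPM, an abundance scaled for transcript length and library total, and a gene was called detected where it had at least 1 TPM in every library. The libraries held 55517261, 21311556 and 45635014 expected counts in replicates 1, 2 and 3, and replicate 2 measured low genes with the least precision. Where no read was counted, as many as 3 counts could have been missed, which corresponds to 0.0540, 0.141 and 0.0657 CPM in the same order and covers counting error only. The nuclear protein-coding genes took 29.6%, 40.4% and 34.8% of TPM, and the nuclear noncoding RNA Malat1 stood at 1156, 976 and 246 TPM. All 9 macrophage markers were detected, led by Lyz2 at 3737 ± 895 TPM and Ctsd at 3346 ± 411 TPM (SD, n = 3), and no marker of T cells, B cells, dendritic, mast, erythroid, stromal, epithelial or neuronal cells was. Of the neutrophil markers 2 of 5 were detected, S100a8 at 3.89 ± 0.475 and Mmp8 at 2.89 ± 0.693 TPM, while Ngp reached 3.50 TPM in replicate 2 alone and Elane and Ly6g were not detected. Of the megakaryocyte markers 1 of 4 was, Pf4 at 92.4 ± 15.3 TPM. The part of such cells in the Rab levels was not tested.

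Of the 59 Rab genes, 38 were detected, beside 42.2% of all protein-coding genes. Their median level over all 59 was 7.30 ± 0.990 TPM (SD of the library medians, n = 3), and that of all protein-coding genes was 0.187 ± 0.0321 TPM. Over detected genes alone the medians were 26.6 ± 4.26 TPM for the Rab genes and 9.92 ± 1.46 TPM for protein-coding genes. Means of at least 10 TPM were found for 29 members and means of at least 50 TPM for 8. The shares of all protein-coding genes past these limits were not counted. Those same 8, namely Rab7, Rab5c, Rab8b, Rab10, Rab14, Rab1a, Rab11a and Rab7b, were in the top 10% of detected protein-coding genes, a class that holds 9.99% of detected and 4.21% of all protein-coding genes. Of the 8, Rab11a averaged 72.5 TPM over all transcripts but 25.7 TPM over transcripts with a complete coding sequence, below the limit of 50. Ranks among protein-coding genes were not counted on that scale. All 59 together summed to 1383 ± 235 TPM. Rab7 and Rab5c held 22.6 ± 1.04% of that sum, and the 10 most abundant members held 63.0 ± 0.772%. Counted against the protein-coding counts of the nuclear genome, the Rab genes took 0.498%, 0.529% and 0.504% in replicates 1, 2 and 3.

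**Figure D1:**
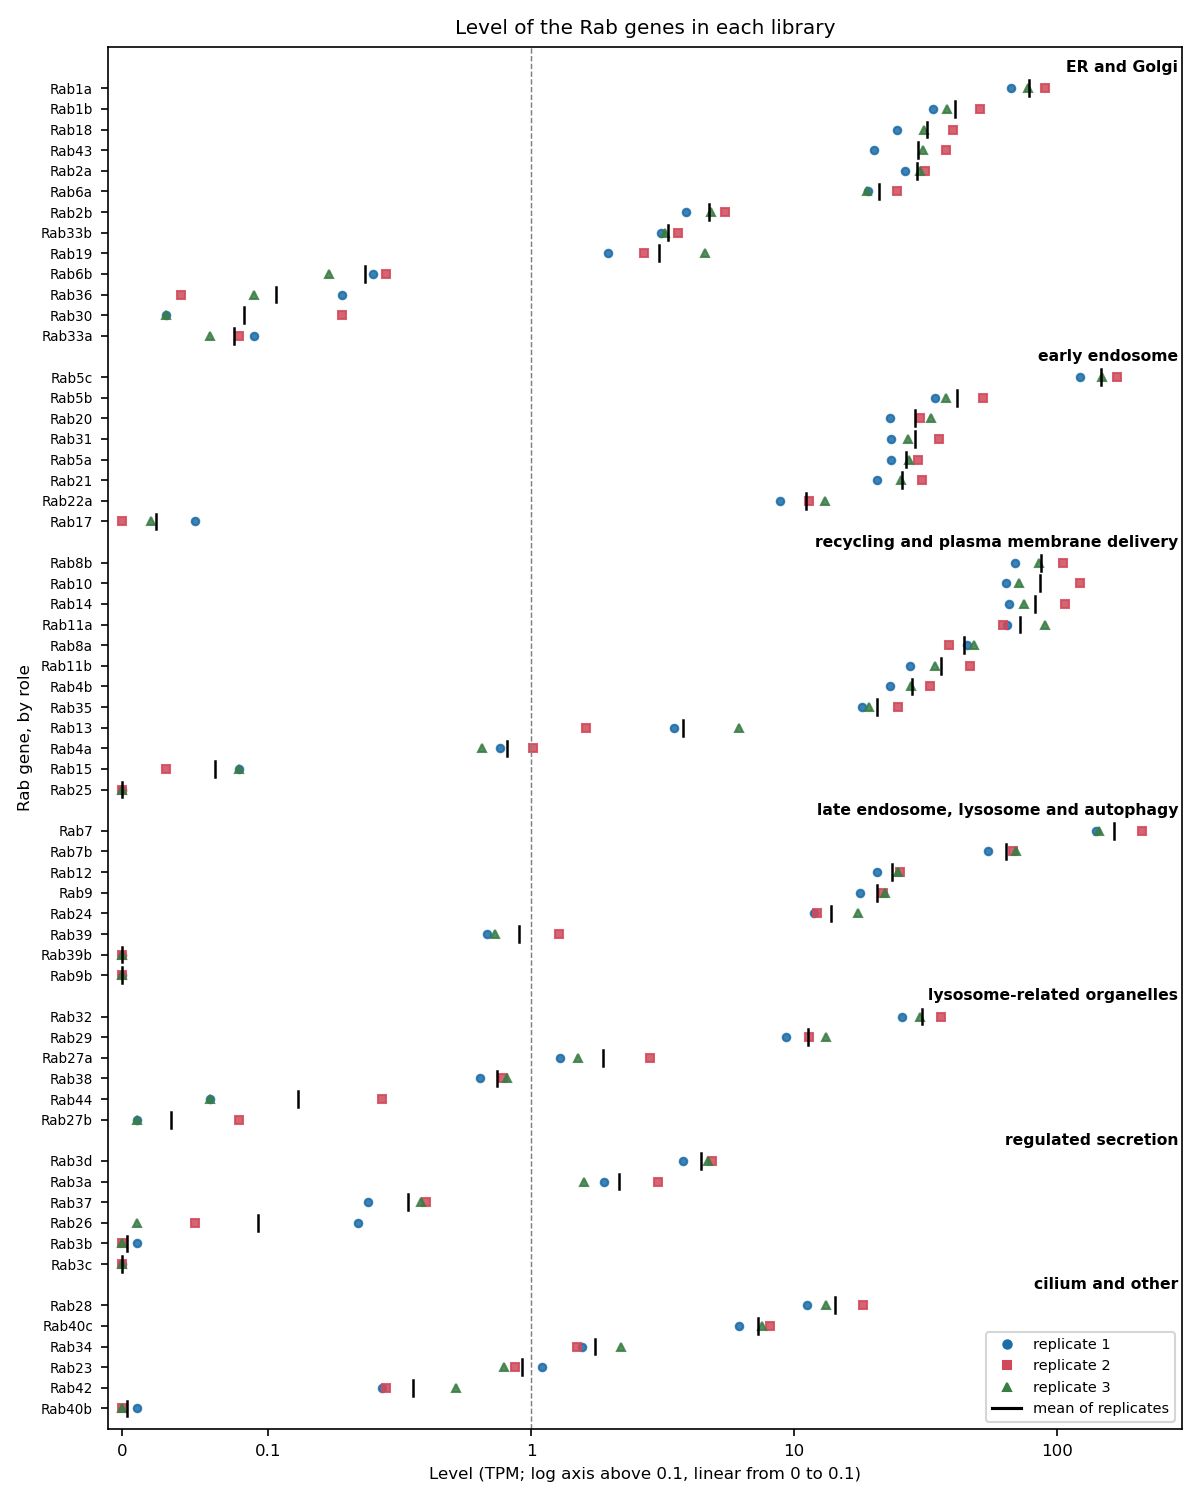
Level of each of the 59 Rab genes in TPM (horizontal axis, logarithmic above 0.1 and linear below) by role, with 1 point per replicate and a black bar at the mean; the dashed line marks 1 TPM. Rab7 and Rab5c stand furthest right, and every class holds members on either side of the line.

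Among the Rabs of the late endosome, lysosome and autophagy, 5 of 8 were detected. Rab7, which drives the fusion of late endosomes and phagosomes with lysosomes, was the most abundant member of the whole family. It lies on the minus strand of chromosome 6 at 87999106-88045270 (mm10). It measured 141, 211 and 145 TPM in replicates 1, 2 and 3, with 24108, 10540 and 17984 counts behind these values. In TPM replicate 2 was the highest, and replicates 1 and 3 lay close together. In CPM of protein-coding counts Rab7 measured 503, 539 and 443 in replicates 1, 2 and 3. Part of the Rab7 sequence is not its own: 18.4% of the 31-base words in its transcripts, read on either strand, also occur in other genes, 14.1% in the processed pseudogene Rab7-ps1, which was listed at a mean of 1.14 TPM.

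Rab7b, a relative that acts between endosomes and the trans-Golgi and is known for lowering Toll-like receptor 4 signalling in macrophages, measured 54.7, 68.4 and 70.1 TPM. Rab7 exceeded it in every library, by 2.58 ± 0.505 times. Rab7b was divided between 2 coding transcripts. Rab7b-201, with 157 codons, held 48.4%, 53.9% and 52.8% of its TPM, and Rab7b-202, with 199 codons, held 49.4%, 46.1% and 44.6%. Rab12, which works between recycling endosomes and lysosomes, had a mean of 23.7 ± 2.52 TPM. Rab9, which returns mannose 6-phosphate receptors from late endosomes to the Golgi, had 20.7 ± 2.48 TPM. Rab24, linked to autophagy, measured 11.9, 12.2 and 17.6 TPM. It shares 54.4% of its 31-base words with Prelid1, which overlaps it on the opposite strand and had 74.7 TPM, so its level is uncertain. Rab39 reached 1 TPM in replicate 2 only, and Rab39b and Rab9b had no count in any library.

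Early endosome Rabs were detected in 7 of 8 cases. Rab5c, which with Rab5a and Rab5b governs the fusion of early endosomes and young phagosomes, measured 123, 169.8 and 149 TPM. It lies on the minus strand of chromosome 11 at 100715009-100738215 (mm10). Rab5b measured 34.6, 52.3 and 37.9 TPM, and Rab5a measured 23.4, 29.7 and 27.4 TPM. The values of Rab5c did not overlap with those of either paralog: it exceeded Rab5b by 3.58 times and Rab5a by 5.47 times on average. Rab5b exceeded Rab5a in each library, by 1.54 times on average.

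Rab20, which acts in phagosome ripening, measured 23.3, 30.2 and 33.2 TPM. Rab31, which carries cargo from the trans-Golgi to endosomes, measured 23.4, 35.8 and 27.1 TPM. Its paralog Rab22a was lower in each library, at 8.87, 11.4 and 13.1 TPM. Rab31 exceeded it by 2.62 times on average. Rab21, known for integrin traffic, had 25.7 ± 4.95 TPM. The class as a whole lay high, with a median of 27.0 ± 3.58 TPM over its 8 members, and only Rab17, a Rab of polarised epithelia, was near 0, at 4, 0 and 2 counts.

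The Rabs of recycling and delivery to the plasma membrane made up the largest share, 33.5 ± 0.202% of the summed TPM, and 9 of 12 were detected. Rab8b, an exocytic Rab, measured 69.3, 106 and 85.8 TPM. Rab10, which acts in the delivery of receptors to the cell surface, measured 64.3, 123 and 71.8 TPM. Rab14, of the Golgi, endosomes and phagosomes, measured 66.1, 108 and 75.3 TPM. In TPM these 3 genes were highest in replicate 2 and lowest in replicate 1. Rab4b, of fast recycling, measured 23.2, 33.0 and 28.0 TPM, while its paralog Rab4a had 0.760, 1.02 and 0.650 TPM and missed the limit of 1 TPM in replicates 1 and 3. Rab4b exceeded Rab4a by 35.3 times on average. The Rab4b value carries its own doubt, since 62.7% of its 31-base words occur in other genes, 59.2% in the gene model Gm21983, which overlaps it on the same strand and is itself listed at 0. Rab35 had 20.8 ± 3.58 TPM, and Rab15 and Rab25 were not detected.

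Rab8a and Rab11a had levels that rested on short or noncoding transcripts. Rab8a, the paralog of Rab8b, measured 45.5, 39.1 and 48.4 TPM. The transcript with the highest mean share, 62.7%, 42.9% and 57.2% of its TPM, was Rab8a-202, a retained-intron model of 542 bases. In a separate quantification made from the reads, Rab8a-202 led in each library, with 69.7%, 53.1% and 63.1%. In TPM of transcripts with a complete coding sequence, Rab8a measured 16.7, 22.3 and 20.5. Rab8b, which has 1 annotated transcript, exceeded Rab8a in each library on either scale: Rab8a minus Rab8b in log2(TPM + 1) was -0.94 over all transcripts and -2.06 over complete coding transcripts.

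Rab11a and Rab11b, the Rabs of the recycling endosome, changed order with the scale. Over all transcripts Rab11a measured 64.6, 62.6 and 90.3 TPM and Rab11b measured 27.6, 46.8 and 34.4 TPM. Rab11a was thus the higher in every library, by 0.99 ± 0.51 in log2(TPM + 1). Its most abundant transcript, Rab11a-201, has 595 bases and no complete coding sequence in the annotation, and complete coding transcripts held a mean of 35.5% of its TPM. Counted on those alone, Rab11a measured 23.6, 21.5 and 32.2 TPM and Rab11b measured 23.9, 44.3 and 29.1 TPM. On that scale Rab11b was higher in replicates 1 and 2 and lower in replicate 3, and the mean difference turned to -0.30. These totals include shorter coding sequences: Rab11a-204 has 86 codons, Rab11a-206 has 153 and Rab11b-203, the main Rab11b transcript, has 193. The longest of Rab11a, Rab11a-208 with 216 codons, measured 12.2, 17.4 and 12.3 TPM. The longest of Rab11b, Rab11b-201 with 218 codons, measured 3.72, 4.62 and 3.42 TPM. Counts not scaled for length gave Rab11b the higher value in each library, with 96.5, 111 and 93.6 CPM of protein-coding counts beside 82.1, 68.9 and 88.5 for Rab11a. Which of these paralogs was the more abundant therefore depended on the transcripts counted.

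**Figure D2:**
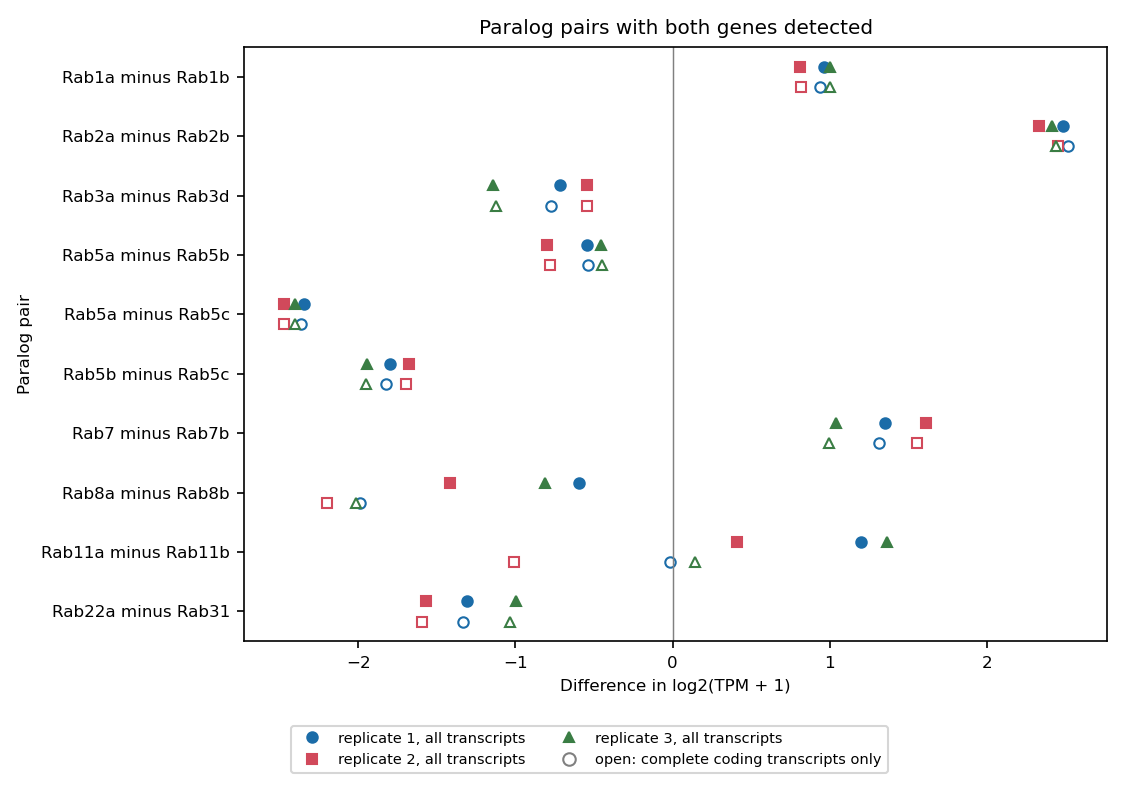
Difference in log2(TPM + 1) between the genes of the 10 paralog pairs with both detected, per replicate, over all transcripts (filled) and over complete coding transcripts (open). The filled points of each pair lie on 1 side of 0, and the open points of Rab11a minus Rab11b lie on both sides.

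The family held 26 paralog pairs in 17 groups of close relatives. In 25 of them the same gene was higher in each library, and the exception, Rab3b and Rab3c, had a single count in all. Rab9b, Rab25, Rab39b and Rab3c had no count, so a paralog counted in each library was bound to be higher. Other orders rest on low values, such as Rab26 and Rab37 at 0.220 and 0.240 TPM in replicate 1. Both genes were detected in 10 pairs, and in those 10 the order was the same in each library. In 13 pairs 1 gene was detected and the other was not, and in 3 neither was. With 3 libraries, an exact two-sided sign-flip test cannot give a p below 0.25, so these orders are descriptions. Pairs of other genes were not counted in this way, so the orders show no trait of Rab paralogs.

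Rabs of the endoplasmic reticulum and Golgi were detected in 9 of 13 cases. Rab1a, which directs transport from the endoplasmic reticulum to the Golgi, measured 67.2, 90.2 and 78.1 TPM. Rab1b, of the same step, measured 34.0, 51.0 and 38.4 TPM. Rab1a exceeded it in each library, by 1.93 ± 0.141 times. Rab2a, also of early secretory traffic, measured 26.4, 31.6 and 30.2 TPM, and its paralog Rab2b measured 3.90, 5.47 and 4.86 TPM. Rab2b lay lower by 6.25 ± 0.493 times, and 59.6% of its 31-base words occur in other genes, 56.4% in the gene model Gm43766 on the opposite strand. Rab18, of the endoplasmic reticulum and lipid droplets, had 32.1 ± 7.84 TPM.

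Rab43, a Golgi Rab, had 29.6 ± 8.95 TPM, with 20.1 in replicate 1 as the lowest value and 37.8 in replicate 2 as the highest. It shares 74.8% of its 31-base words with the gene model Gm45140, which overlaps it on the same strand and is listed at 1.39 TPM, the largest such share in the family. Its main transcript differed between libraries: Rab43-203 held 60.6%, 40.0% and 74.8%, and Rab43-201 held 34.6%, 60.0% and 23.6%. In the quantification from the reads, Rab43-203 led in each library, with 69.0%, 46.8% and 91.1%, so this difference depended on the table. Rab33b, a Golgi Rab also tied to autophagy, had 3.33 ± 0.263 TPM, and its paralog Rab33a was not detected. Rab6b, Rab36 and Rab30 were not detected either.

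Rab6a, which governs retrograde traffic within and from the Golgi, measured 19.2, 24.7 and 19.0 TPM, while its paralog Rab6b had 0.233 ± 0.0569 TPM. Rab6a has 3 protein-coding transcripts in the annotation, which carry either of 2 alternative exons of equal length. The exons lie on the plus strand of chromosome 7 (mm10), at 100629838-100629943 in Rab6a-201 and at 100629666-100629771 in Rab6a-202 and Rab6a-203. The coding sequences of Rab6a-201 and Rab6a-202, of 627 bases each, differ at 30 positions, from base 184 to base 279 counted from the start codon. That stretch of 96 bases is shown for each transcript, 5′ to 3′, with the bases that differ in capitals.
Rab6a-201: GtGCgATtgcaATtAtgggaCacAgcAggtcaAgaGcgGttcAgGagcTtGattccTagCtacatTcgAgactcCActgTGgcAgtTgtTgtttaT
Rab6a-202: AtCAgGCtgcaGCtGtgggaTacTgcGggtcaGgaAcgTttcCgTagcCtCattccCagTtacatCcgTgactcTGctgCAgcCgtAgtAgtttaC
The exon of Rab6a-201 was carried by 47.4%, 38.3% and 54.5% of Rab6a TPM in replicates 1, 2 and 3. The exon of Rab6a-202 and Rab6a-203 was carried by 50.7%, 61.7% and 45.5%. Most of the latter was Rab6a-203, whose coding sequence is shorter, with 175 codons beside 208, and which held 45.8%, 55.7% and 32.9%. Rab6a-202 itself held 4.84%, 5.98% and 12.6%. Neither exon led in every library: that of Rab6a-202 and Rab6a-203 was higher in replicates 1 and 2, and the other in replicate 3. Taken as single transcripts, Rab6a-201 was the highest in replicates 1 and 3 and Rab6a-203 in replicate 2. In the separate quantification made from the reads, the shares of the exon of Rab6a-201 were 53.0%, 42.1% and 62.6%, so the leading exon in replicate 1 changed with the table. Rab6a shares 18.2% of its 31-base words with Mrpl48, which overlaps it on the opposite strand and had 10.8 TPM.

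**Figure D3:**
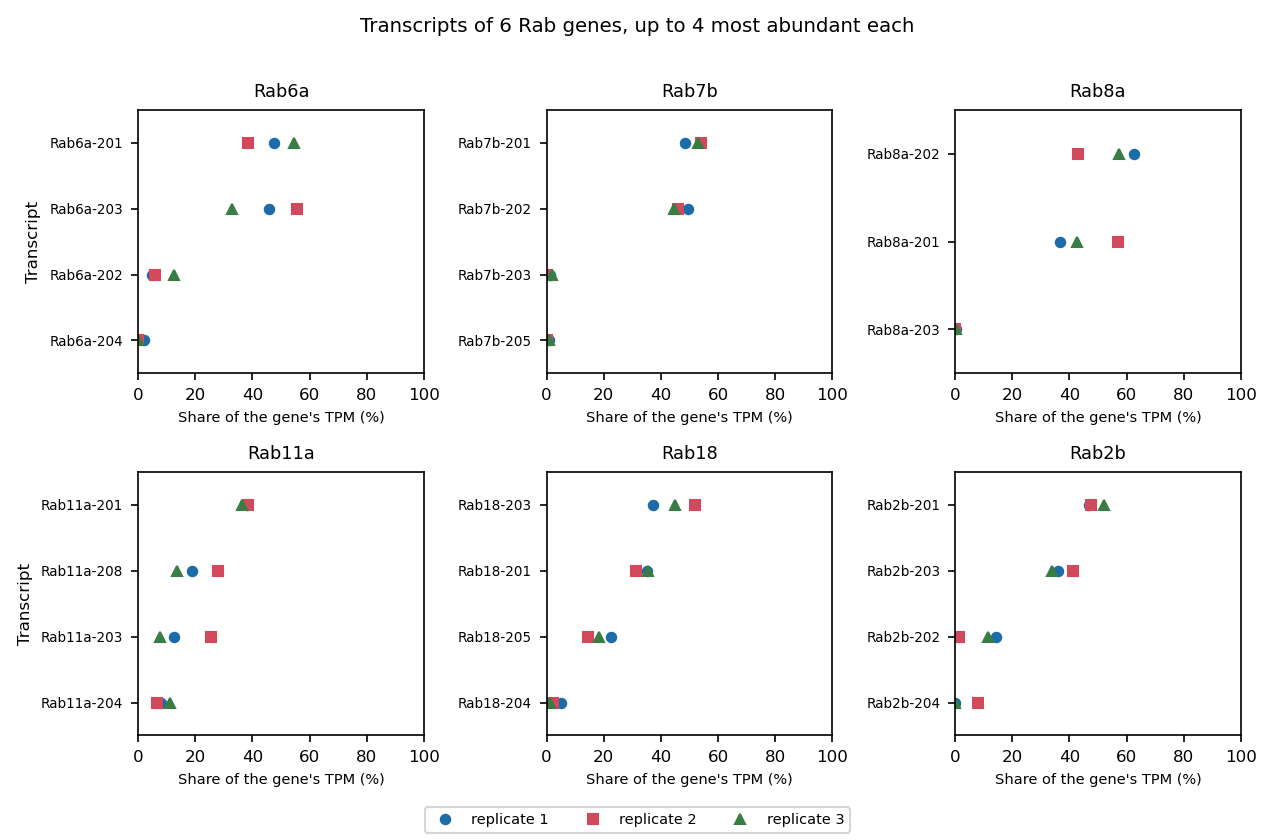
Share of a gene's TPM (horizontal axis, percent) held by its most abundant transcripts, with 1 point per replicate, for 6 Rab genes. Rab6a and Rab7b are each divided mainly between 2 transcripts, and Rab8a-202 leads Rab8a in replicates 1 and 3 but not in replicate 2.

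Of the 38 detected members, 33 have more than 1 annotated transcript. For the rest, a share of 100% and a constant main transcript were fixed in advance. Across all 38, the most abundant transcript held a median of 93.3% of the gene's TPM. It was the same transcript in all 3 libraries for 34 members, the exceptions being Rab6a, Rab7b, Rab8a and Rab43. In the quantification from the reads, Rab7b, Rab8a and Rab43 each kept 1 main transcript, while Rab6a and Rab11a did not. These counts were not made over all protein-coding genes. In the first quantification, the most abundant transcript held under 50% on average in 4 members, Rab11a, Rab18, Rab2b and Rab6a. Rab40c was the least even between libraries, with 39.9%, 98.0% and 62.6% in Rab40c-201. Complete coding transcripts held a median of 99.0% of TPM, and under 75% in Rab8a and Rab11a only. Among the detected members, 12 shared over 10% of their 31-base words with the sum of all other genes. Besides those named above, they include Rab20 with 24.0%, Rab33b with 22.6% and Rab11b with 15.4%.

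Of the Rabs of lysosome-related organelles, 3 of 6 were detected. Rab32, which acts at melanosomes and other lysosome-related compartments and in the phagosomes of macrophages, measured 25.9, 36.3 and 30.2 TPM. It lies on chromosome 10. Its paralog Rab38 measured 0.640, 0.780 and 0.810 TPM, and Rab32 exceeded it by 41.4 ± 4.66 times. Rab29, an activator of the kinase Lrrk2, measured 9.30, 11.4 and 13.2 TPM. Rab27a, which docks secretory lysosomes at the plasma membrane, measured 1.29, 2.84 and 1.51 TPM, and Rab27b and Rab44 were not detected.

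Regulated secretion was the class with the lowest levels, and 2 of 6 members were detected. Rab3d, a Rab of secretory granules, measured 3.77, 4.87 and 4.71 TPM. Rab3a, the synaptic vesicle Rab, measured 1.90, 3.03 and 1.59 TPM and was below Rab3d in each library. Rab37 and Rab26 had means of 0.340 and 0.0933 TPM, Rab3b had 1 count in replicate 1, and Rab3c had none. Of the 6 members tied to the cilium or to other functions, Rab28 had 14.3 ± 3.67 TPM, Rab40c, a substrate adaptor of a ubiquitin ligase, had 7.30 ± 0.990 TPM, and Rab34 had 1.75 ± 0.382 TPM. Rab23, a regulator of Hedgehog signalling, measured 1.10, 0.870 and 0.790 TPM and missed the limit in replicates 2 and 3, and Rab42 and Rab40b were not detected.

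In all, 21 members did not reach 1 TPM in every library, and 17 members had a mean below 0.5 TPM. The share of all protein-coding genes below 0.5 TPM was not counted, but their median, 0.187 TPM, lies below it. Rab25, Rab39b, Rab3c and Rab9b had no count in any library. Just inside the limit stood Rab34, Rab27a and Rab3a, and just outside it stood Rab23, Rab39, at 0.897 ± 0.333 TPM, and Rab4a. In bulk RNA, fewer cells with a transcript and less transcript per cell cannot be told apart.

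The libraries were then compared with each other in CPM of nuclear protein-coding counts (protein-coding CPM), which leaves out the differing share of noncoding RNA. Set against the average of the other libraries on the log2 scale, the libraries had median ratios over the 38 detected members of -0.03 in replicate 1, -0.05 in replicate 2 and 0.06 in replicate 3. Over the protein-coding genes that averaged 1 TPM or more, the medians were 0.09, -0.02 and -0.09. Of the 38 Rab genes, 17 were higher in replicate 1 than in the others, beside 67.2% of protein-coding genes. In replicate 2, 15 were higher, beside 46.8%. In replicate 3, 24 were higher, beside 35.6%. Nuclear noncoding RNAs differed far more: the median log2 ratio over Malat1, Neat1 and Airn was 1.76 in replicate 1, -0.63 in replicate 2 and -1.90 in replicate 3. The part of nuclear RNA in the Rab values was not tested. In TPM, 27 of the 38 were highest in replicate 2 and 32 were lowest in replicate 1. This is the scale on which Rab8b, Rab10 and Rab14 shared an order of libraries. Replicates 2 and 1 had the highest and the lowest protein-coding share of TPM. After TPM was rescaled to protein-coding genes, 17 were highest in replicate 2 and 10 were lowest in replicate 1. The same counts were not made over all protein-coding genes, so they show no trait of the Rab genes. The part of the protein-coding share in them was not tested.

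**Figure D4:**
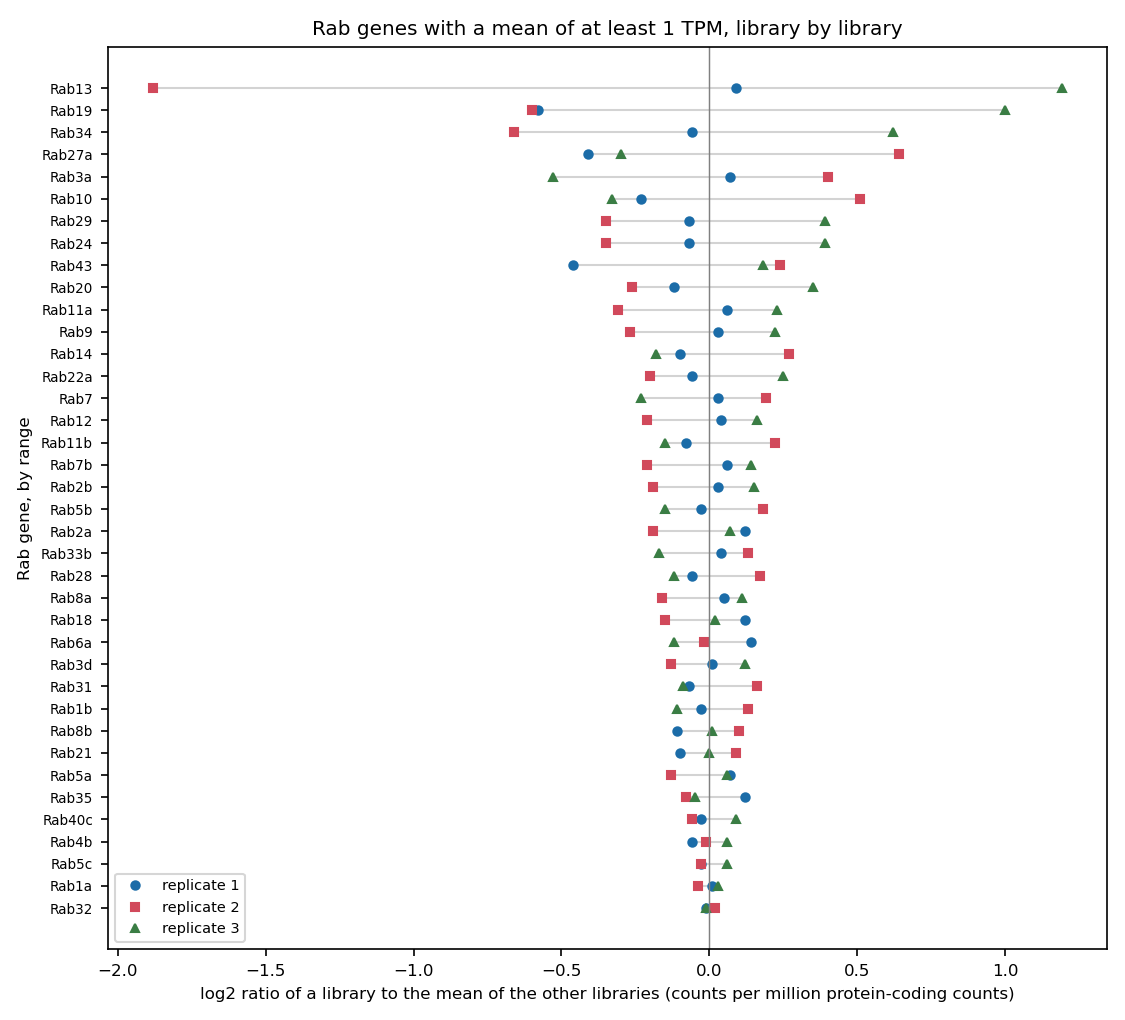
Each library set against the average of the others, as a log2 ratio of protein-coding CPM (horizontal axis), for the 38 detected Rab genes, with 1 point per replicate, ordered by range. Rab32, Rab1a and Rab5c have the narrowest ranges, and Rab13 and Rab19 the widest.

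For 33 of the 38 members the highest library was less than 1.5-fold the lowest, beside 80.9% of protein-coding genes, and the median fold range was 1.17 beside 1.26. The protein-coding genes were not matched for level, and the detected Rab genes had the higher median TPM. Among members that averaged 5 TPM or more, the largest ranges were those of Rab10, Rab24, Rab29, Rab43 and Rab20. Rab10 measured 399, 555 and 381 protein-coding CPM, the highest in replicate 2. Rab29 measured 17.5, 15.2 and 21.4, Rab24 measured 18.2, 15.9 and 22.4, and Rab20 measured 51.3, 48.0 and 63.4, each the highest in replicate 3 and the lowest in replicate 2. Rab43 measured 156, 217 and 212, the lowest in replicate 1. At the other end, chosen after the values were seen, Rab32 measured 93.7, 95.3 and 93.8 and Rab1a measured 307, 299 and 309.8.

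The 2 detected members with the widest ranges were low in level and were singled out after their values were seen. Rab13, known from tight junctions and from the traffic of surface proteins, had 279, 38 and 364 counts, which is 5.82, 1.94 and 8.98 protein-coding CPM, a range of 4.45-fold. Rab19 had 240, 97 and 409 counts, or 5.01, 4.96 and 10.1 protein-coding CPM, a range of 2.01-fold. Rab13 was low in replicate 2 and Rab19 was high in replicate 3. The coefficient of variation between libraries beyond counting error, estimated with edgeR, had a median of 0.149 over 44 Rab genes and of 0.166 over 11149 protein-coding genes. This estimate draws each gene towards genes of like level: in simulated data, 200 genes made with a value of 0.6 came out at a median of 0.233. A single value estimated over those 200 genes, which were all made with the same value, came out at 0.605. Estimated over the real sets, it was 0.164 for the Rab genes and 0.179 for protein-coding genes. Sets whose genes differ in this value were not simulated. For both measures the protein-coding genes were not matched for level.

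A second quantification, made by the authors from the reads rather than from an alignment, was compared after both were rescaled to protein-coding genes. The log2 difference had a median of 0.02 over the 38 detected members and ran from -0.37 to 0.14. Rab11a, Rab22a and Rab18 lay lowest in the gene table against the other, at -0.37, -0.25 and -0.20. Rab24, Rab8b and Rab1b lay highest among members of 5 TPM or more in either table, with 0.14, 0.10 and 0.09. Without rescaling, 33 members were detected there, beside 31.1% of protein-coding genes, and nuclear protein-coding genes held 20.5%, 21.4% and 7.95% of its TPM. After rescaling, 42 were detected there, beside 47.1%.

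Genes that serve the Rab cycle were mostly detected, against the same 42.2% of protein-coding genes. Of 7 genes of prenylation and membrane extraction, 6 were detected. Gdi2, a GDP dissociation inhibitor that takes inactive Rabs off membranes, measured 145, 226 and 157 TPM. Rabggtb, the catalytic subunit of Rab geranylgeranyl transferase, had 13.5 ± 0.704 TPM. Of 36 exchange factors, 30 were detected, led by Rab3il1, an exchange factor of Rab8, at 47.4 ± 14.8 TPM. Dennd1a, an exchange factor of Rab35, had 43.7 ± 8.14 TPM, and Ccz1, which with Mon1 activates Rab7, had 30.7 ± 5.20 TPM.

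Of 37 GTPase-activating proteins, 32 were detected. Tbc1d13, which acts on Rab35, had 79.8 ± 17.4 TPM, Tbc1d20, which acts on Rab1, had 25.3 ± 4.81 TPM, and Tbc1d2b had 23.1 ± 5.18 TPM. Of 55 effectors, 44 were detected. Myo5a, the myosin motor that several Rabs recruit, led at 125 ± 34.6 TPM, followed by Rilpl2, which binds phosphorylated Rab8 and Rab10, at 51.2 ± 13.8 TPM, and Ehbp1l1, a Rab8 effector, at 48.1 ± 8.34 TPM.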

How the data were processed

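Ribosome-depleted total RNA of 3 libraries was used. Per the file headers, the authors deposited gene and transcript tables with expected counts, TPM and bounds of TPM (a signal never below 0, not used in any result), and, apart from these, transcript values of their own in estimated counts and TPM. The description files name mm10 and GENCODE M21 and say that the first tables came from an alignment and the last from the reads; the programs and whether strand was used are not stated in the labels or headers. TPM was scaled by the authors within each library.

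Of 81881 identifiers, 55536 matched the annotation and were used. Here, counts were scaled to CPM of nuclear protein-coding genes, an offset of 0.1 was used for ratios and a pseudocount of 1 for paralog differences, and expected counts were rounded for edgeR 4.0.16 (TMM, 12361 genes) and DESeq2 1.42.0 in R 4.3.3. The edgeR fit was tested on simulated data. Python 3.11.15, pandas 2.3.3 and Biopython 1.88 were used for the rest. Words of 31 bases were compared between the transcripts of different genes.

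With 1 group there was no comparison between treatments. Named genes were Rab7, Rab5c and Rab32, the 4 most abundant of each role class, detected paralogs, the 5 widest library ranges and the 3 largest differences between tables each way at 5 TPM or more, and the 3 leading genes of each Rab cycle list, of which 1 is not reported here; the others are named to account for each member or were chosen after their values were seen. The members and lists were chosen with earlier results of these data known. Alternatives were the other table, other limits, scales, offsets and tools, and leaving out each replicate.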

Additional observations from a re-analysis of the deposited data

How the results depend on the processing

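With 3 libraries in 1 group, the limits are the few libraries, the depth of replicate 2 for low genes, and reads divided among overlapping genes and copies by a model. The number of detected members ran from 33 (read-based table, or a limit of 2 TPM) to 42 (a limit of 0.5 TPM, or TPM rescaled to protein-coding genes), and 38 were detected without any 1 replicate. The median level of the members was 3.30 TPM in the read-based table, 20.9 after rescaling to protein-coding genes and 26.6 over detected members. Paralog pairs with the same order in each library numbered 25 of 26. Where both means had to reach 1 TPM, they numbered 10 of the 10 pairs left. Of 208 alternative values of the 26 pair differences, 203 kept their direction; 3 of the other 5 were of Rab3b minus Rab3c, which is near 0, and Rab11a minus Rab11b turned to -0.33 in TMM-normalized CPM and to -0.30 in complete coding transcripts, an alternative chosen after seeing the data. The median library ratio of replicate 1 was -0.37 in TPM, -0.14 with TMM and -0.18 with DESeq2 size factors, and that of replicate 2 was 0.32 in TPM; the cause was not tested. Leaving out Rab7 and Rab5c, also added later, gave -0.03, -0.07 and 0.06. The median coefficient of variation was between 0.152 and 0.166 without 1 replicate. No paired comparison of treatments was possible because there is 1 group.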
